A study of Mus musculus with 12 samples.

Results

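The subunits of oxidative phosphorylation were followed through the induction of reprogramming factors in mouse fibroblasts and through the knockdown of TRIM28 and SETDB1. Members were all protein-coding rows of the deposited count table whose gene symbol follows the naming of respiratory chain and ATP synthase subunits (Ndufa, Ndufb, Ndufc, Ndufs and Ndufv with a number, Sdha to Sdhd, Uqcr, Cox4 to Cox8, Atp5, and the mt-Nd, mt-Co, mt-Atp and mt-Cyt genes). This gave 94 members of 24207 rows, of which 82 lie on nuclear chromosomes and 12 on the mitochondrial chromosome. Complex I had 35 nuclear and 6 mitochondrial members, complex II 4 nuclear members, complex III 8 nuclear and 1 mitochondrial, complex IV 18 nuclear and 3 mitochondrial, and complex V 17 nuclear and 2 mitochondrial. The processed pseudogenes Atp5l-ps2 and Atp5l2-ps share the naming and were left out because they are not annotated as protein coding.

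RNA was sequenced from mouse embryonic fibroblasts of strain C57BL/6 carrying FUW-OSKM and FUW-M2rtTA, lentiviral constructs that express Oct4, Sox2, Klf4 and cMyc when doxycycline is added, in 4 groups of 3 libraries taken at day 7. The double-knockdown cells received doxycycline with hairpin RNAs against Trim28 and Setdb1. The Trim28-knockdown cells received doxycycline with a hairpin against Trim28, and the induced controls received doxycycline with a scrambled hairpin. The uninduced cells carried the same constructs and the scrambled hairpin without doxycycline. Growth was on feeder fibroblasts that had been irradiated, in medium for embryonic stem cells, so RNA of the feeders may be in every library. In bulk samples such as these fewer cells of a type and less RNA per cell cannot be told apart. The labels do not say that replicates came from separate cultures, so the p-values rest on a spread between libraries that may be technical.

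The respiratory chain passes electrons from NADH (complex I) and succinate (complex II) through complex III to oxygen at complex IV, and complex V, the ATP synthase, uses the resulting proton gradient to make ATP. Complexes I, III, IV and V combine subunits encoded by mitochondrial DNA with many nuclear subunits that are made in the cytosol and imported, whereas complex II is wholly nuclear. Mitochondrial genes are transcribed as long polycistronic precursors by a dedicated RNA polymerase, so their messages are controlled apart from those of the nuclear subunits. Fibroblasts on their way to pluripotency are known to shift from respiration towards glycolysis.

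Library totals ran from 11906701 to 19191649 reads, so that 3 reads in a library corresponded to 0.156 to 0.252 CPM (reads per 1000000 reads of the library). These 2 values are unscaled. All other CPM values are scaled by the trimmed mean of M-values (TMM). Trim28, the co-repressor targeted by the hairpin, stood at 103 ± 6.41 CPM in double-knockdown cells, 58.5 ± 5.95 CPM in Trim28-knockdown cells, 328 ± 38.3 CPM in induced controls and 249 ± 24.9 CPM in uninduced cells (SD, n = 3 each). Setdb1, which encodes a histone methyltransferase recruited by TRIM28, stood at 63.1 ± 8.21 CPM in double-knockdown cells, 122 ± 1.36 CPM in Trim28-knockdown cells, 81.2 ± 4.27 CPM in induced controls and 60.7 ± 4.29 CPM in uninduced cells. The 8 fibroblast markers had reads in every group and summed to 16300 to 18900 CPM in double-knockdown cells, 12200 to 13640 CPM in Trim28-knockdown cells, 15210 to 22370 CPM in induced controls and 21820 to 26180 CPM in uninduced cells. The 7 epithelial markers summed to 912 to 1134 CPM in double-knockdown cells, 1627 to 1845 CPM in Trim28-knockdown cells, 1606 to 2029 CPM in induced controls and 7.37 to 8.35 CPM in uninduced cells, with Esrp1 at 0 reads in uninduced cells. The 8 pluripotency markers summed to 22.9 to 39.6 CPM in double-knockdown cells, 38.9 to 49.5 CPM in Trim28-knockdown cells, 55.2 to 77.2 CPM in induced controls and 0.187 to 0.647 CPM in uninduced cells, with Sall4, Utf1, Zfp42 and Tdgf1 at 0 reads in uninduced cells and Dppa4 at 0 in Trim28-knockdown cells. The 14 striated muscle markers summed to 59.1 to 71.3 CPM in double-knockdown cells, 52.8 to 61.1 CPM in Trim28-knockdown cells, 28.8 to 30.9 CPM in induced controls and 28.8 to 35.8 CPM in uninduced cells. The 6 endothelial markers summed to 45 to 53.2 CPM in double-knockdown cells, 69 to 73.3 CPM in Trim28-knockdown cells, 46.8 to 60.3 CPM in induced controls and 11.5 to 12.4 CPM in uninduced cells, with Tie1 at 0 reads in uninduced cells. The 7 neural markers summed to 478 to 528 CPM in double-knockdown cells, 449 to 519.7 CPM in Trim28-knockdown cells, 476 to 580 CPM in induced controls and 278 to 287 CPM in uninduced cells, with Sox10 at 0 reads in induced controls and Rbfox3 in uninduced cells. The 6 adipocyte markers summed to 11.8 to 13.4 CPM in double-knockdown cells, 9.16 to 11 CPM in Trim28-knockdown cells, 6.51 to 8.75 CPM in induced controls and 30.2 to 40.3 CPM in uninduced cells, with Adipoq at 0 reads in induced controls and Adipoq, Cidec and Ucp1 in uninduced cells. The 7 macrophage markers summed to 9.59 to 11.9 CPM in double-knockdown cells, 11.7 to 14.2 CPM in Trim28-knockdown cells, 15.4 to 19.7 CPM in induced controls and 8.48 to 11.4 CPM in uninduced cells, with Emr1 at 0 reads in Trim28-knockdown cells. These markers moved with the groups, and their part in the subunit results was not tested. Induced control replicate 2 and uninduced replicate 3 stood apart from the other libraries of their groups. Across 14441 genes, each library's deviation from the mean of the other 2 libraries of its group was correlated with the gene's GC content. The values were -0.565 and -0.496 for these 2 libraries, in that order. They were 0.284 to 0.352 for the other 4 libraries of these groups and -0.146 to 0.148 for the knockdown libraries. Since each library is set against its partners, the positive values partly mirror the negative ones. With log2 transcript length the same deviations correlated at 0.00366, 0.229 and -0.232 in double-knockdown replicates 1, 2 and 3. The range was -0.0765 to 0.0765 in Trim28-knockdown cells, -0.187 to 0.171 in induced controls and -0.0938 to 0.101 in uninduced cells. The part of these length trends in the subunit results was not tested. Results that rest on induced control replicate 2 and uninduced replicate 3 are given with and without them.

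The mitochondrial members fell into 2 classes by their read counts. mt-Co1, mt-Cytb, mt-Nd1, mt-Nd2, mt-Nd4, mt-Nd5 and mt-Atp8 had 7519 to 112464 reads in every library, and mt-Nd6, the one member encoded on the light strand, had 380 to 670. mt-Nd3 had 12 to 29 reads, mt-Atp6 4 to 15, mt-Co2 1 to 8 and mt-Co3 1 to 6. The last 4 are also the members whose coding sequence recurs, over 99.9% of its length or more, at 98% identity or more in an annotated gene on chromosome 1 of GRCm38. Gm28438 matches mt-Nd3 at 99.71% identity, and Gm28661, Gm10925 and Gm28437 match mt-Co2, mt-Atp6 and mt-Co3 at 100%. Such nuclear copies of mitochondrial DNA make a read's origin ambiguous, and reads that map to several places are commonly left out of gene counts. Of the coding bases of mt-Nd4, 63.6% recurred in copies of this kind, and of mt-Co1, 31.1%, while mt-Nd1, mt-Nd2, mt-Nd5, mt-Nd6, mt-Cytb and mt-Atp8 had 0%. mt-Nd4 had 20641 to 28700 reads. In every library it had fewer reads than mt-Nd1, mt-Nd2, mt-Nd5 and mt-Cytb, and more than mt-Atp8 and mt-Nd6. mt-Co1 had more reads than mt-Cytb, the highest of the members with no copy, in every library. Whether the copies lowered the counts of mt-Nd4 and mt-Co1 was not tested. No source used here states how reads with several matches were treated. The first 90 coding bases of 2 of these members and of their chromosome 1 copies (GRCm38) are shown because they leave an aligner next to nothing to tell gene and copy apart. Capitals mark the base at position 3, counted from 1 at the start of the coding sequence, where the mitochondrial gene and the copy differ by T3C. The mt-Co3 window and its copy hold no difference.
mt-Nd3 (chrMT:9459-9548, plus strand): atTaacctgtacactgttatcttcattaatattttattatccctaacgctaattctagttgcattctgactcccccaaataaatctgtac
Gm28438 (chr1:24613030-24613119, minus strand): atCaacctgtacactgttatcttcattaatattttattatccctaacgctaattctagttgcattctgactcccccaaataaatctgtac
mt-Co3 (chrMT:8607-8696, plus strand): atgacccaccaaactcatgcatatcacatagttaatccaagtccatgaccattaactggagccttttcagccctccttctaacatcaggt
Gm28437 (chr1:24613882-24613971, minus strand): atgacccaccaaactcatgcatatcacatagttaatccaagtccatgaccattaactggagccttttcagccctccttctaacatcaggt

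**Figure D1:**
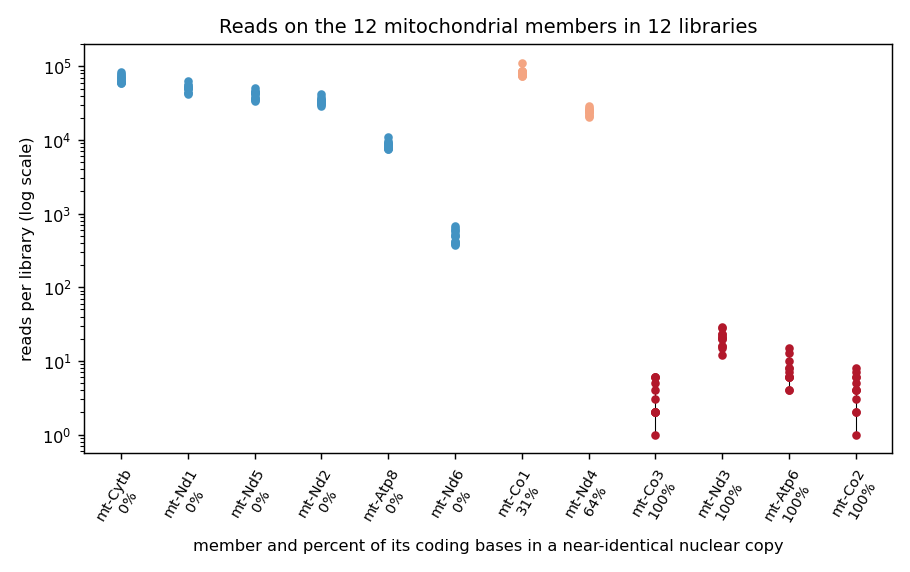
Reads per library (log axis) on each of the 12 mitochondrial members, 1 point per library, ordered by the percent of coding bases that recur at 98% identity or more in an annotated gene on another chromosome (blue 0%, orange 31.1% and 63.6%, red 99.9% or more). The 4 members in red had 1 to 29 reads, against 380 or more for all others.

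Of the 94 members, 90 passed the filter on low counts and were tested, 80 nuclear and 10 mitochondrial. The 4 untested members were mt-Co2, mt-Co3, Cox6a2, the heart and muscle isoform of COX6A, with 0 to 6 reads a library, and Cox7b2, with 1 read in all. Per kilobase of exon, the tested nuclear members had a median level of 41 CPM in double-knockdown cells, 37.8 CPM in Trim28-knockdown cells, 38 CPM in induced controls and 40.1 CPM in uninduced cells. The tested mitochondrial members had a median level of 1602 CPM per kilobase in double-knockdown cells, 1630 in Trim28-knockdown cells, 1717 in induced controls and 1802 in uninduced cells. Atp5b, which encodes the catalytic beta subunit of the F1 head of ATP synthase, had the highest nuclear level in each group, with 273 ± 11.6 CPM per kilobase in double-knockdown cells, 250.4 ± 1.59 CPM per kilobase in Trim28-knockdown cells, 249 ± 11 CPM per kilobase in induced controls and 224 ± 7.05 CPM per kilobase in uninduced cells (SD, n = 3). mt-Cytb, cytochrome b of complex III, had the highest mitochondrial level, with 3582 ± 99.5 CPM per kilobase in double-knockdown cells, 3469 ± 201 CPM per kilobase in Trim28-knockdown cells, 3641 ± 537 CPM per kilobase in induced controls and 3857 ± 756 CPM per kilobase in uninduced cells. Apart from mt-Nd6, the mitochondrial messages of the well-counted genes thus stood more than an order of magnitude above the typical nuclear one in all 4 groups. mt-Nd6, with 20.6 to 41.5 CPM over 519 exon bases, did not.

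As shares of all reads, nuclear members took 0.793, 0.768 and 0.841% in double-knockdown cells, 0.752, 0.765 and 0.785% in Trim28-knockdown cells, 0.771, 0.759 and 0.809% in induced controls and 0.713, 0.723 and 0.684% in uninduced cells. Every uninduced library lay below every induced one, and the induced groups overlapped. On the TMM scale used for the tests below, the nuclear members summed to 8008, 7672 and 8377 CPM in double-knockdown cells, 7381, 7515 and 7633 CPM in Trim28-knockdown cells, 7516, 7324 and 7776 CPM in induced controls and 7550, 7626 and 7258 CPM in uninduced cells. On that scale the uninduced libraries overlapped with the induced controls, so the lower share in uninduced cells depends on the scaling. The mitochondrial members took 1.77, 1.83 and 1.75% in double-knockdown cells, 1.73, 1.91 and 1.9% in Trim28-knockdown cells, 1.77, 2.3 and 1.95% in induced controls and 1.77, 1.79 and 2.16% in uninduced cells. The 2 highest of these mitochondrial shares came from the 2 libraries that stood apart by GC content, and the groups overlapped. Nuclear members gathered, per 100 reads on mitochondrial members, 44.7, 41.9 and 48.1 reads in double-knockdown cells, 43.3, 40.1 and 41.4 reads in Trim28-knockdown cells, 43.5, 33 and 41.4 reads in induced controls and 40.2, 40.3 and 31.6 reads in uninduced cells. The 2 lowest ratios were again those of induced control replicate 2 and uninduced replicate 3, and the double-knockdown libraries lay above all uninduced ones and overlapped with the Trim28-knockdown and induced control libraries.

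**Figure D2:**
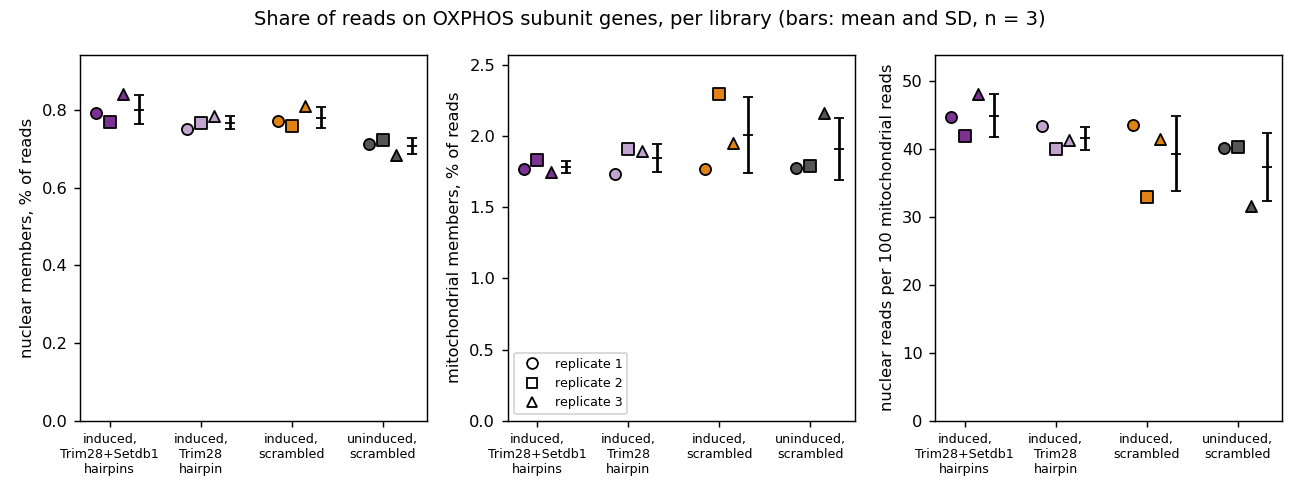
Percent of reads on nuclear members (left), on mitochondrial members (middle) and nuclear reads per 100 mitochondrial reads (right) in each library, all axes from 0, with the mean and SD of 3 libraries beside each group. Induced control replicate 2 (33) and uninduced replicate 3 (31.6) have the lowest ratios.

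The first comparison asks how induction of the 4 factors changed subunit messages, with induced controls set against uninduced cells. Under edgeR's quasi-likelihood test at a Benjamini-Hochberg adjusted p under 0.05 over 14520 rows, 14 nuclear members rose, 24 fell and 42 did not pass. Of all tested rows, 65.3% were called in this comparison, 32.7% higher and 32.7% lower, against 47.5% of the nuclear members. The members' median log2 change was -0.11, against -0.017 for all rows, and 52 of 80 members were negative. Without the 2 libraries that stood apart 14 rose and 30 fell, and 35 of the 38 called members remained called in the same direction. Scaling by library totals in place of TMM moved the median of all rows to 0.11 and that of the members to 0.024, and it gave 21 higher and 12 lower nuclear members beside 40.1% and 24.9% of all rows. The balance of higher and lower members therefore depends on the scaling. Their median lay below that of all rows under both, but a change of scale shifts all rows nearly alike. The check could therefore not move the members against all rows.

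In complex I, which oxidises NADH, 4 of the 35 nuclear members rose and 11 fell. Ndufs6, a zinc-binding accessory subunit (chr13:73319874-73328542), had 36.2, 35.6 and 39.7 CPM in induced controls, against 27, 26.6 and 26.2 CPM in uninduced cells (log2 0.49 ± 0.081 (SE), edgeR adjusted p = 6.2e-05). Ndufa10, an accessory subunit of the membrane arm, had 98.2, 109.9 and 111 CPM in induced controls, against 86.2, 89.8 and 86.8 in uninduced cells (log2 0.28 ± 0.066 (SE), edgeR adjusted p = 0.0014). In both genes all induced libraries lay above all uninduced ones. Ndufb10, a distal membrane arm subunit (chr17:24722060-24724478), had 42, 40.02 and 42 CPM in induced controls, against 55.7, 58.5 and 60.2 in uninduced cells (log2 -0.49 ± 0.073 (SE), edgeR adjusted p = 1.9e-05). Ndufa13, an accessory subunit also known as GRIM-19, had 66.7, 51.6 and 61.9 CPM in induced controls, against 89.9, 91.6 and 85 in uninduced cells (log2 -0.56 ± 0.088 (SE), edgeR adjusted p = 3.3e-05), and its row overlaps those of Tssk6 and Yjefn3. For both the groups did not overlap, and induced controls were lower. The 7 nuclear subunits of the catalytic core had 1 member higher (Ndufs1, log2 0.20, adjusted p = 0.033) and 0 lower, with a median of 0.061. The 28 accessory subunits had 3 higher and 11 lower, with a median of -0.15. Beside the genes named above, Ndufb8 rose (log2 0.35), and Ndufb11, Ndufa3, Ndufa1, Ndufc1, Ndufa2, Ndufa6, Ndufv3, Ndufb7 and Ndufb2 fell, with log2 values from -0.49 (Ndufa1) to -0.21 (Ndufb7).

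Complex II, which doubles as a citric acid cycle enzyme, had 1 called member among 4. Sdhc, one of its membrane anchors, had 77.1, 67.3 and 78 CPM in induced controls, against 93.2, 96.2 and 94.1 in uninduced cells (log2 -0.35 ± 0.067 (SE), edgeR adjusted p = 2.5e-04). Complex III had 3 members higher and 1 lower of 8. The core subunit Uqcrc1 (chr9:108936648-108949640) had 196, 164 and 205 CPM in induced controls, against 141, 147 and 121 in uninduced cells (log2 0.47 ± 0.085 (SE), edgeR adjusted p = 1.4e-04). Uqcrfs1, the Rieske iron-sulfur protein, had 85.6, 93.8 and 107 CPM in induced controls, against 68.2, 69.5 and 68.7 in uninduced cells (log2 0.47 ± 0.076 (SE), edgeR adjusted p = 4.3e-05). Uqcrc2, the other core subunit, also rose (log2 0.31, adjusted p = 9.7e-04). The small hinge subunit Uqcrh had 101, 103 and 97.8 CPM in induced controls, against 127, 123 and 133 in uninduced cells (log2 -0.34 ± 0.064 (SE), edgeR adjusted p = 1.9e-04), and overlaps Gm12854. The members of complex III that rose were thus its core and Rieske subunits.

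In complex IV, cytochrome c oxidase, 3 of the 16 tested nuclear members rose and 7 fell. Cox5a (chr9:57521232-57532424), a matrix-facing subunit, had 135, 146 and 148 CPM in induced controls, against 97.5, 97.3 and 100 in uninduced cells (log2 0.54 ± 0.068 (SE), edgeR adjusted p = 3.4e-06), and overlaps Gm26631. It had the smallest p of all members in this comparison, and its groups lay far apart. Cox7a2l, a relative of COX7A2 that joins complexes III and IV into supercomplexes, had 151, 141 and 150.4 CPM in induced controls, against 196, 184 and 188 in uninduced cells (log2 -0.36 ± 0.059 (SE), edgeR adjusted p = 5.6e-05). That value is uncertain, since 50% of the Cox7a2l coding sequence recurs in the processed pseudogene Gm6969. Cox6a1 had 125, 95 and 119.7 CPM in induced controls, against 157, 158 and 129 in uninduced cells (log2 -0.39 ± 0.099 (SE), edgeR adjusted p = 0.0027). In complex V 4 members rose and 4 fell of 17. The F1 head, which makes ATP, had 3 higher and 0 lower of 5 tested, and the remaining nuclear members of complex V had 1 higher and 4 lower of 12. Atp5a1, the alpha subunit of the head, had 708, 729.7 and 783 CPM in induced controls, against 615, 618 and 598 in uninduced cells (log2 0.28 ± 0.058 (SE), edgeR adjusted p = 4.8e-04). Atp5d, the delta subunit of its central stalk, had 224, 150.3 and 242 CPM in induced controls, against 142, 144 and 92.2 in uninduced cells (log2 0.71 ± 0.16 (SE), edgeR adjusted p = 9.5e-04), and overlaps Dos. The lowest Atp5d value of each group came from the library that stood apart, and without both libraries the change was log2 0.71, adjusted p = 7.2e-07. Atp5s, which encodes coupling factor B and not a structural subunit, had 4.5, 6 and 4.91 CPM in induced controls, against 7.87, 7.14 and 8.8 in uninduced cells (log2 -0.64 ± 0.14 (SE), edgeR adjusted p = 7.0e-04). Atp5l, subunit g of the membrane part, had 35.5, 35.1 and 37.4 CPM in induced controls, against 41.5, 47.6 and 41.4 in uninduced cells (log2 -0.27 ± 0.077 (SE), edgeR adjusted p = 0.0053), and its whole coding sequence recurs in annotated pseudogenes. The other called members of complex V were Atp5b (log2 0.15) and Atp5sl (log2 0.36), which rose, and Atp5j2 (log2 -0.30) and Atp5h (log2 -0.17), which fell. The whole coding sequence of Atp5h recurs at 98.96% identity in the processed pseudogene Gm10250. For the genes of complexes IV and V given here by library the groups did not overlap. The protein of Atp5sl, despite the name, is known in human cells as an assembly factor of complex I.

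**Figure D3:**
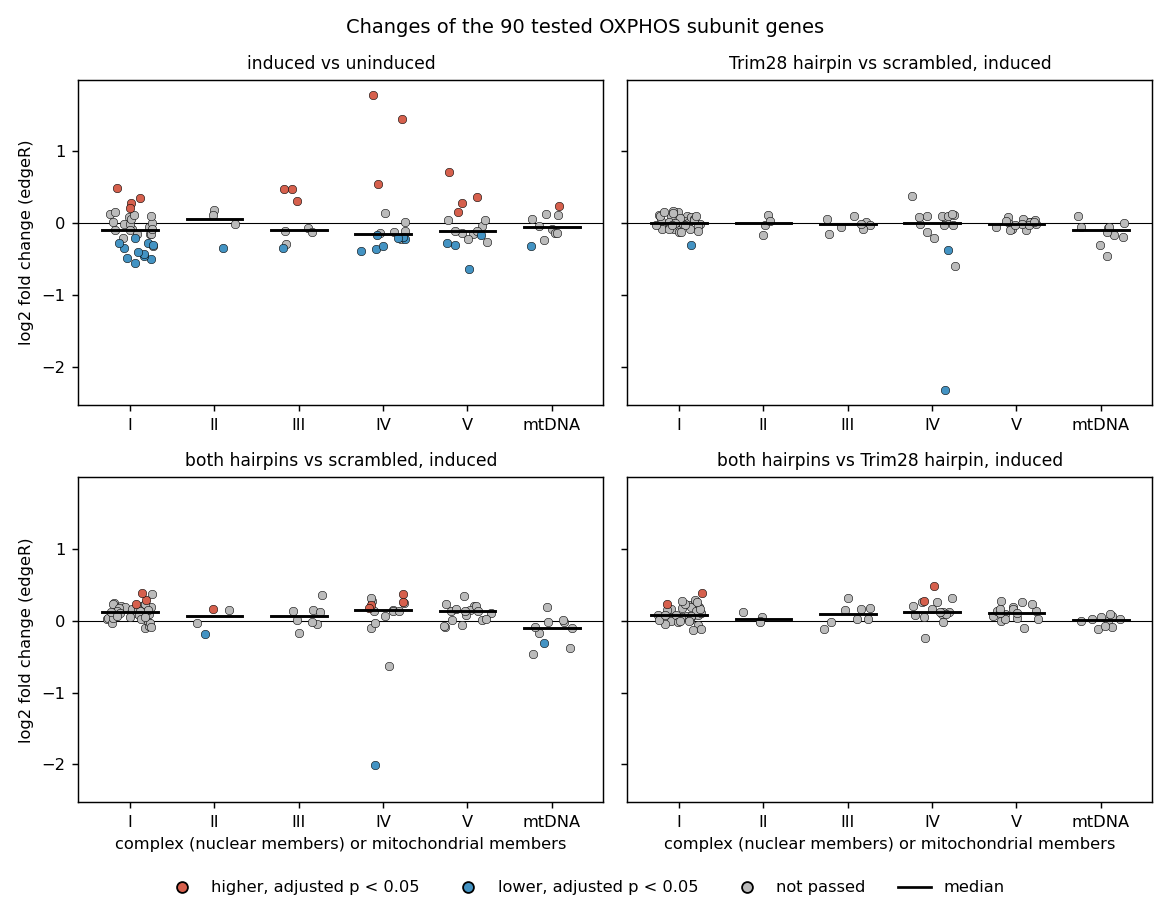
Log2 fold changes (edgeR) of the 90 tested members in the 4 comparisons, nuclear members by complex and mitochondrial members in the last column, with black lines at the medians. Red and blue points passed an adjusted p of 0.05; 14 nuclear members rose and 24 fell under induction, against 0 and 3 with the Trim28 hairpin, 8 and 2 with both hairpins, and 4 and 0 between the knockdowns.

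The nuclear members that rose and fell under induction differed in size. Of 14 members with a coding sequence of 800 bases or more, 7 rose and 1 fell, with a median log2 change of 0.17. Of 30 members with 400 to under 800 coding bases 4 rose and 9 fell (median -0.13), and of 36 members under 400 bases 3 rose and 14 fell (median -0.15). The median coding length was 798 bases among the members that rose, 325.5 among those that fell and 426 among those that did not pass. Across the 80 members, log2 change had a Spearman correlation of 0.389 with coding length and of 0.289 with transcript length. Across 14441 rows the correlation with transcript length was 0.00124. Other measures were weaker among the members. The Spearman correlation with exon length was 0.19, and Pearson correlations with log2 coding and log2 transcript length were 0.203 and 0.11. The points are genes that share the same libraries, so these values are descriptions. Of the core and head subunits that rose, Ndufs1, Atp5a1 and Atp5b were in the longest class and Atp5d, with 504 coding bases, in the middle one. Leaving out the 2 libraries that stood apart, the longest class had 7 higher and 1 lower, the middle class 4 and 12, and the shortest class 3 and 17. With library totals as the scale, the classes from long to short had 10 and 0, 7 and 6, and 4 and 6.

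**Figure D4:**
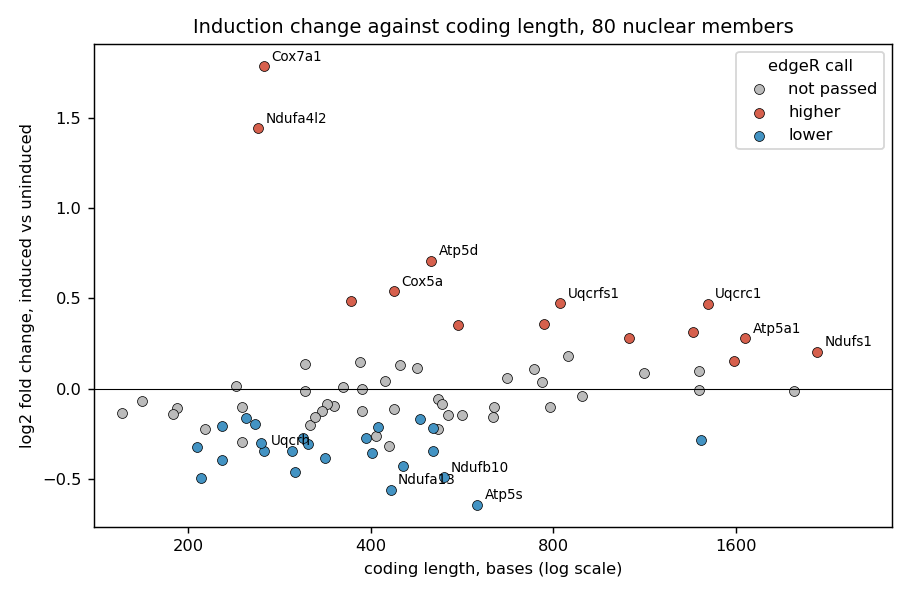
Log2 fold change of induced controls over uninduced cells (edgeR) against coding length in bases (log axis) for the 80 tested nuclear members, coloured by call. Among the 14 members of 800 bases or more, 7 rose and 1 fell.

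Promoters of the nuclear members held motifs of factors long tied to respiratory genes. RefSeq promoters of GRCm38.p6, from 250 bases before to 50 after the start, were at hand for 68 of the 82 nuclear members (74 promoters). The NRF1 motif (GCGCA, any base, GCGC) was in 24.32% of these and in 4.603% of all 32851 promoters, the ETS motif CCGGAAG, read by GABP, in 21.62% and 8.858%, and the YY1 motif AAGATGGCG in 12.16% and 1.403%, with both strands searched. At least 1 of the 3 was in 50% of member promoters and 13.55% of all. By call under induction, 3 of 10 members that rose and had a promoter, 10 of 20 that fell and 22 of 37 that did not pass held at least 1 motif. The 4 promoters below, of the 2 called members with the smallest p in each direction among those with a motif that could be printed, were picked after the values were seen. They show that members with these motifs moved in both directions, and capitals mark the motifs.
Ndufs6, higher (chr13:73328433-73328732, minus strand): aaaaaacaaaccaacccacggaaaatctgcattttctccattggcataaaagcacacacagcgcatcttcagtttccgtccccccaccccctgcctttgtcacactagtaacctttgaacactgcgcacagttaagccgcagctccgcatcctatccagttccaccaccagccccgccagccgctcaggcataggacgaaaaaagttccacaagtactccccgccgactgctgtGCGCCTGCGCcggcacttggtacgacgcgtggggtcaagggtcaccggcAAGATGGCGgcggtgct
Uqcrc1, higher (chr9:108936398-108936697, plus strand): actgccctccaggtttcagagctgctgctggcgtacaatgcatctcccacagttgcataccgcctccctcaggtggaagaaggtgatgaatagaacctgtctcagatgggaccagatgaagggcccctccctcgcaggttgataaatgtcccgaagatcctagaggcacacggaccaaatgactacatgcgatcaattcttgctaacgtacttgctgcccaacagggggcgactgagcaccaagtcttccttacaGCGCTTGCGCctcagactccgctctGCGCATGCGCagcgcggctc
Uqcrh, lower (chr4:116075021-116075320, minus strand): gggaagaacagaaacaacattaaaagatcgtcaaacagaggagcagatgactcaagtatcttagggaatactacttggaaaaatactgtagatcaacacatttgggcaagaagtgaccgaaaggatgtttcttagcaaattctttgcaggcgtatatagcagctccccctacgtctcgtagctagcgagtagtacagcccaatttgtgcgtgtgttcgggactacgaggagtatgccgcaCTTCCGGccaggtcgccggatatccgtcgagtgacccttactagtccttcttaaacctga
Ndufc1, lower (chr3:51408906-51409205, minus strand): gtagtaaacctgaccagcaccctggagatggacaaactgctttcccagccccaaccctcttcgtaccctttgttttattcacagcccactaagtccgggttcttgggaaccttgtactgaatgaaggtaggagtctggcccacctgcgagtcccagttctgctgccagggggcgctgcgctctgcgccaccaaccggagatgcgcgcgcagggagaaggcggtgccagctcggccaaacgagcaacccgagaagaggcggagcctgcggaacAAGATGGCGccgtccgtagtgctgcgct
The Ndufs6 window holds an NRF1 and a YY1 motif, the Uqcrc1 window NRF1 motifs, the Uqcrh window an ETS motif in reverse complement, and the Ndufc1 window a YY1 motif. Ndufc1, a small membrane arm subunit of complex I, fell by 0.40 on the log2 scale under induction (edgeR adjusted p = 0.0022).

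Of the 10 tested mitochondrial members, 1 rose and 1 fell under induction. mt-Nd5, a proton-pumping subunit of complex I (chrMT:11742-13565) whose row overlaps that of mt-Nd6, had 2200, 2752 and 2253 CPM in induced controls, against 2907, 2829 and 3289 in uninduced cells (log2 -0.32 ± 0.09 (SE), edgeR adjusted p = 0.0046). mt-Atp8, a small ATP synthase subunit whose row overlaps that of mt-Atp6, had 525, 662 and 543 CPM in induced controls, against 469.6, 502 and 495 in uninduced cells (log2 0.24 ± 0.081 (SE), edgeR adjusted p = 0.017). In both genes the groups did not overlap. mt-Nd1 had 2640, 3485 and 2824 CPM in induced controls, against 3221, 3245 and 4052 in uninduced cells, which did not pass (log2 -0.23 ± 0.10 (SE), edgeR adjusted p = 0.054). mt-Co1 and mt-Nd2 gave log2 values of 0.13 and 0.12, mt-Nd4 and mt-Cytb of -0.14 and -0.083, and mt-Nd6, mt-Nd3 and mt-Atp6 of -0.037, -0.14 and 0.055, none of which passed. The called pair thus moved in opposite directions. Without the 2 libraries that stood apart, 3 mitochondrial members fell and 0 rose. The 3 were mt-Nd5 (log2 -0.37, adjusted p = 3.5e-04), mt-Nd1 (log2 -0.24, adjusted p = 0.0036) and mt-Nd4 (log2 -0.17, adjusted p = 0.035), while mt-Atp8 no longer passed (log2 0.14, adjusted p = 0.08), nor did it without uninduced replicate 1 alone (log2 0.21, adjusted p = 0.065). With library totals as the scale 3 rose and 0 fell, so no direction of the mitochondrial members as a group held across these settings.

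Knockdown of Trim28 during induction was followed by few calls among the nuclear members. In Trim28-knockdown cells against induced controls 0 nuclear members rose and 3 fell of 80, while 24.9% of all rows were called, 13.1% higher and 11.8% lower. The members' median log2 change was -0.0036, with 40 positive and 40 negative. Cox6c, a subunit of cytochrome c oxidase (chr15:35925886-35938246), had 63.2, 63.1 and 66 CPM in Trim28-knockdown cells, against 81.9, 86.3 and 81.8 in induced controls (log2 -0.38 ± 0.067 (SE), edgeR adjusted p = 5.6e-04). Ndufv3, an accessory subunit of the NADH-binding module (chr17:31520115-31531326), had 40.3, 38.5 and 43 CPM in Trim28-knockdown cells, against 53.6, 46.1 and 51.1 in induced controls (log2 -0.31 ± 0.085 (SE), edgeR adjusted p = 0.013). For both, every Trim28-knockdown library lay below every induced control. The Cox6c row overlaps that of Vps13b, and Ndufv3 did not pass without Trim28-knockdown replicate 2 (log2 -0.28, adjusted p = 0.063). Ndufa4l2 (chr10:127514939-127517152), a low-level paralogue of the complex IV subunit NDUFA4 that is known as a target of hypoxia signalling, had 0.698, 0.473 and 0.525 CPM in Trim28-knockdown cells, against 1.52, 1.86 and 4.8 in induced controls (log2 -2.32 ± 0.48 (SE), edgeR adjusted p = 0.002). Its row overlaps that of Shmt2, and the induced value was carried mainly by replicate 3. Leaving out the 2 libraries that stood apart gave 1 member higher and 7 lower, beside 16.3% and 14.4% of all rows. All 3 calls above were among them, with Cox6c at log2 -0.35, adjusted p = 8.2e-04, Ndufv3 at log2 -0.36, adjusted p = 4.8e-04 and Ndufa4l2 at log2 -2.51, adjusted p = 0.0018.

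No mitochondrial member passed in this comparison with edgeR at an adjusted p under 0.05, and 1 of 10 had an unadjusted p under 0.05. The median log2 change of the 10 was -0.096, with 1 positive. mt-Co1, the catalytic subunit of cytochrome c oxidase, was nearest to passing, at 4655, 4984 and 4936 CPM in Trim28-knockdown cells, against 5011, 6091 and 5629 in induced controls (log2 -0.20 ± 0.079 (SE), edgeR adjusted p = 0.079). Without the 2 libraries that stood apart, of which induced control replicate 2 belongs to this comparison, the median was 0.064 and 7 of 10 were positive.

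With both hairpins the log2 changes of the nuclear members leaned upwards. In double-knockdown cells against induced controls 8 rose and 2 fell of 80, beside 18.1% and 18.5% of all rows (36.7% in all), and the members' median log2 change was 0.13 against 0.00090 for all rows, with 62 positive. The Trim28-knockdown and double-knockdown comparisons share the induced controls. The induced groups also differed in the factors. Pou5f1, which encodes Oct4, averaged 367 CPM in double-knockdown cells, 578 in Trim28-knockdown cells and 487 in induced controls. In the same order Sox2 averaged 111, 191 and 161 CPM, Klf4 318, 488 and 462, and Myc 379, 550 and 507. The part of the factor levels in the subunit values was not tested. Log2 change and transcript length had a Spearman correlation of -0.257 across the 80 members and of -0.125 across 14441 rows. The part of transcript length was not tested either. Cox6a1, a small subunit of cytochrome c oxidase (chr5:115345642-115348981), had 150.1, 136 and 155 CPM in double-knockdown cells, against 125, 95 and 119.7 in induced controls (log2 0.37 ± 0.099 (SE), edgeR adjusted p = 0.0076). Ndufa4, a subunit of complex IV, had 147, 131 and 147 CPM in double-knockdown cells, against 125, 117 and 114 in induced controls (log2 0.25 ± 0.07 (SE), edgeR adjusted p = 0.0099). Cox6b1, on its intermembrane face, had 152, 139 and 158 CPM in double-knockdown cells, against 130.1, 128 and 130.4 in induced controls (log2 0.21 ± 0.063 (SE), edgeR adjusted p = 0.017). In each of these 3 the groups did not overlap, and Cox7a2 of complex IV also rose (log2 0.18, adjusted p = 0.043). In complex I, Ndufb10 had 49.96, 44.7 and 51.3 CPM in double-knockdown cells, against 42, 40.02 and 42 in induced controls (log2 0.23 ± 0.073 (SE), edgeR adjusted p = 0.02). Ndufa13 had 80.1, 66.5 and 73.3 CPM in double-knockdown cells, against 66.7, 51.6 and 61.9 in induced controls (log2 0.28 ± 0.088 (SE), edgeR adjusted p = 0.019), with values that overlapped. Ndufa8, the other complex I member that rose, had log2 0.39 (adjusted p = 0.03). In complex II the catalytic flavoprotein Sdha had 242, 237 and 238 CPM in double-knockdown cells, against 209, 212 and 218 in induced controls (log2 0.17 ± 0.055 (SE), edgeR adjusted p = 0.028). The membrane anchor Sdhd went the other way, with 94.1, 93.7 and 97.7 CPM in double-knockdown cells, against 103, 116 and 105 in induced controls (log2 -0.18 ± 0.068 (SE), edgeR adjusted p = 0.046). Ndufa4l2 was lower, at 0.53, 1.25 and 0.292 CPM in double-knockdown cells, against 1.52, 1.86 and 4.8 in induced controls (log2 -2.01 ± 0.45 (SE), edgeR adjusted p = 0.0027). Many of these calls did not hold in every setting. Of 15 alternatives, among them each library left out, the call was lost in 9 for Sdha, 8 for Sdhd, 8 for Cox7a2, 6 for Ndufb10, 4 for Cox6b1, 4 for Ndufa13 and 3 for Ndufa4, and in 0 for Cox6a1. Leaving out 1 library at a time gave 1 to 15 members higher and 1 to 3 lower. Without double-knockdown replicate 3, 1 rose and 3 fell, beside 13.9% and 15.6% of all rows, so the balance of calls turned. The median log2 change was then 0.072, with 55 positive. Without double-knockdown replicate 1, 1 rose and 1 fell, and the median was 0.12. With the replicate number as a block, Cox8a also passed (log2 0.32, adjusted p = 0.048), and 11 members rose and 3 fell. With the 6 libraries of the 2 groups alone 4 rose and 1 fell (29.6% of all rows called), without the 2 libraries that stood apart 13 rose and 3 fell (39.1% of all rows called, 19.7% higher), and with library totals as the scale 3 rose and 3 fell beside 14.6% and 22.6% of all rows.

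Among the mitochondrial members, mt-Co1 (chrMT:5328-6872) fell in double-knockdown cells. It had 4402, 4640 and 4417 CPM in double-knockdown cells, against 5011, 6091 and 5629 in induced controls (log2 -0.31 ± 0.079 (SE), edgeR adjusted p = 0.0056), and every double-knockdown library lay below every induced control. The call held without the 2 libraries that stood apart (log2 -0.25, adjusted p = 0.0047). Its fellow complex IV genes mt-Co2 and mt-Co3 had too few reads to compare, and 31.1% of the mt-Co1 coding sequence recurs in annotated copies. The other 9 tested members did not pass, with log2 values from -0.46 (mt-Atp6) to 0.19 (mt-Nd3). The median of the 10 was -0.098, and 0.051 without the 2 libraries. The median log2 change of nuclear members exceeded that of mitochondrial members by 0.23, and leaving out 1 library at a time gave 0.059 to 0.29. Under induction this difference was -0.046 (-0.22 to 0.0996), with the Trim28 hairpin alone 0.092 (-0.078 to 0.19), and between the knockdowns 0.099 (0.039 to 0.13). The lowest value for double knockdown against induced controls came without induced control replicate 2. Without both libraries that stood apart, the nuclear and mitochondrial medians in that comparison were 0.11 and 0.051. Under induction they were -0.13 and -0.022. With the Trim28 hairpin alone they were -0.014 and 0.064, so the sign of the difference turned.

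Set against Trim28 knockdown alone, the double-knockdown cells had 4 nuclear members higher and 0 lower of 80, beside 10% and 11.7% of all rows, 21.7% in all. The members' median log2 change was 0.10 against 0.0043 for all rows, and 64 were positive. Beside the Setdb1 hairpin and the factor levels given above, these groups differed in Trim28 itself. It stood at 103 CPM in double-knockdown cells and 58.5 CPM in Trim28-knockdown cells. The design cannot tell the parts of these differences apart. Ndufv3 had 52.4, 51.9 and 54.2 CPM in double-knockdown cells, against 40.3, 38.5 and 43 in Trim28-knockdown cells (log2 0.38 ± 0.084 (SE), edgeR adjusted p = 0.0045). Cox6c had 74.6, 72.6 and 84.7 CPM in double-knockdown cells, against 63.2, 63.1 and 66 in Trim28-knockdown cells (log2 0.27 ± 0.067 (SE), edgeR adjusted p = 0.009). Both are genes that fell with the Trim28 hairpin alone, and in both the double-knockdown libraries lay above all Trim28-knockdown ones, although Cox6c did not pass without double-knockdown replicate 3 (log2 0.20, adjusted p = 0.06). Ndufb10 had 49.96, 44.7 and 51.3 CPM in double-knockdown cells, against 39.9, 40.9 and 43.5 in Trim28-knockdown cells (log2 0.23 ± 0.073 (SE), edgeR adjusted p = 0.032). Ndufb10 did not pass when any 1 of 4 of these 6 libraries was left out, nor with library totals as the scale (log2 0.20, adjusted p = 0.067). Cox6b2, the testis isoform of COX6B (chr7:4751792-4753094), had 21.1, 19.6 and 19.4 CPM in double-knockdown cells, against 15, 11.7 and 16.4 in Trim28-knockdown cells (log2 0.48 ± 0.15 (SE), edgeR adjusted p = 0.034). Its groups did not overlap, but it did not pass when any 1 of 5 of the 6 libraries was left out (adjusted p = 0.063 to 0.18). The 6 testis germ cell markers in the table summed to 1.81 CPM or less in every library, with Cyct, Ldhc or Prm1 at 0 reads in each group.

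The number of members called in that comparison depended on which libraries entered the estimate of the spread. With the 6 libraries of the knockdown groups alone 20 nuclear members rose and 0 fell, beside 16.3% and 17.1% of all rows. Without the 2 libraries that stood apart, neither of which belongs to the groups compared, 24 rose and 0 fell, beside 16.5% and 16.4% of all rows. These 24 comprised 11 complex I members, 3 of complex III, 5 of complex IV and 5 of complex V. Cox6a1 was then called (log2 0.26, adjusted p = 0.0029), with 150.1, 136 and 155 CPM in double-knockdown cells, against 122, 118 and 128 in Trim28-knockdown cells. Atp5g1, encoding the proton-carrying c subunit of the ATP synthase, was also called (log2 0.27, adjusted p = 0.0056), with 66.7, 63.6 and 70.6 CPM in double-knockdown cells, against 54.3, 53.6 and 58.3 in Trim28-knockdown cells. The whole Atp5g1 coding sequence recurs at 99.75% identity in the processed pseudogene Gm10039. The median change was 0.10 in each of these readings. Both keep every library of the 2 groups compared, so the median could hardly move. With 1 of these libraries left out it ran from 0.068 (without double-knockdown replicate 3) to 0.14 (without double-knockdown replicate 2). Without double-knockdown replicate 3, 1 nuclear member was called higher and 56 were positive. No mitochondrial member passed in edgeR, 0 of 10 had an unadjusted p under 0.05, and their median was 0.0057. By size, the members of 800 coding bases or more had a median of 0.040, those of 400 to under 800 bases 0.12 and those under 400 bases 0.14. Log2 change and transcript length had a Spearman correlation of -0.246 across the 80 members and of -0.19 across 14441 rows, so longer genes tended to lower values among all rows too.

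**Figure D5:**
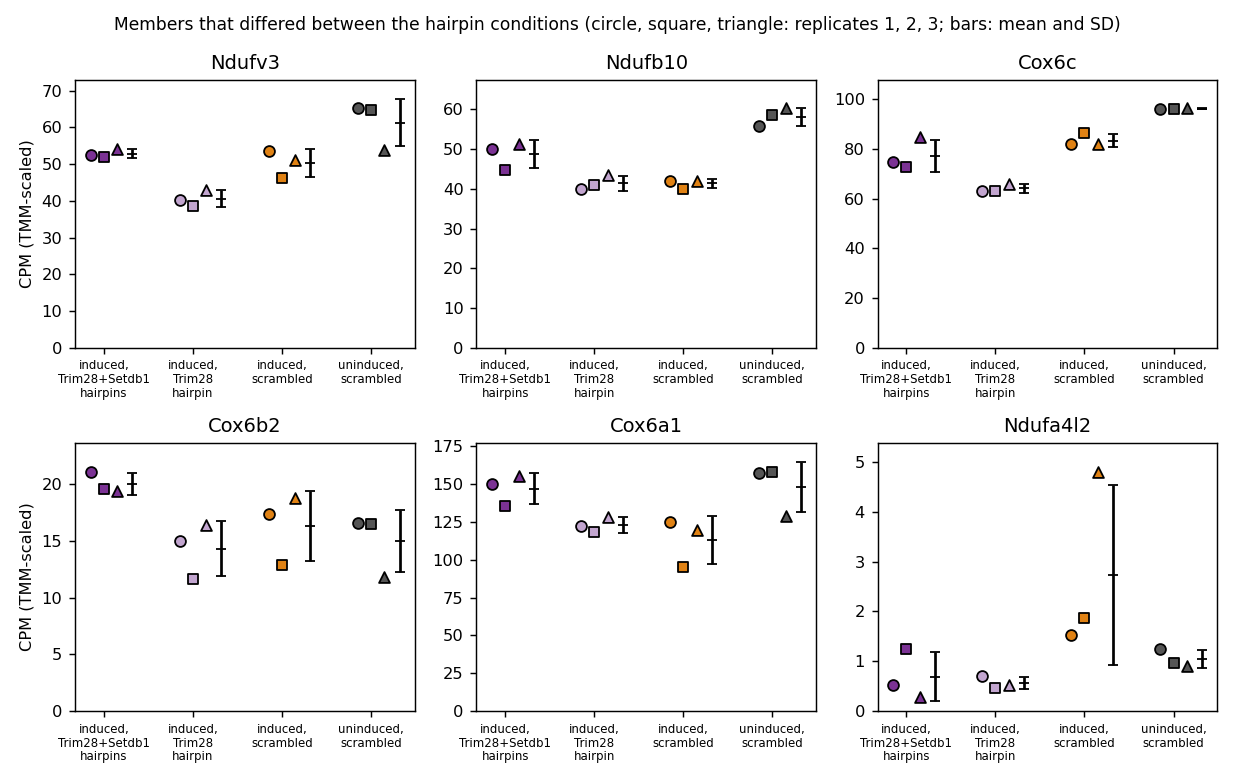
CPM (TMM-scaled, axes from 0) of 6 members in each library, with the mean and SD of 3 libraries. Ndufv3 and Cox6c are lowest in Trim28-knockdown cells (40.6 and 64.1 CPM on average), and Ndufa4l2 is highest in induced control replicate 3 (4.8 CPM).

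Several subunits exist as isoforms with tissue-restricted partners, and 18 of the 21 names listed for this comparison were in the table. The widely expressed isoform had the higher level per kilobase of exon in each pair described here and in every group. Cox4i1 had 168 ± 12.5 CPM per kilobase in double-knockdown cells, 155 ± 4.32 CPM per kilobase in Trim28-knockdown cells, 152 ± 9.54 CPM per kilobase in induced controls and 177 ± 6.67 CPM per kilobase in uninduced cells. Its partner Cox4i2, known from lung and hypoxia, had 0.989 CPM per kilobase in double-knockdown cells, 1.17 CPM per kilobase in Trim28-knockdown cells, 0.902 CPM per kilobase in induced controls and 1.05 CPM per kilobase in uninduced cells and passed no test. Cox6b1 had 211 CPM per kilobase in double-knockdown cells, 194 CPM per kilobase in Trim28-knockdown cells, 183 CPM per kilobase in induced controls and 209 CPM per kilobase in uninduced cells. The testis isoform Cox6b2 had 18.1 CPM per kilobase in double-knockdown cells, 12.9 CPM per kilobase in Trim28-knockdown cells, 14.8 CPM per kilobase in induced controls and 13.5 CPM per kilobase in uninduced cells. In each group it stood far below Cox6b1. Cox7a2 had 84.9 CPM per kilobase in double-knockdown cells, 80.5 CPM per kilobase in Trim28-knockdown cells, 75 CPM per kilobase in induced controls and 84 CPM per kilobase in uninduced cells. The heart and muscle isoform Cox7a1 (chr7:30184171-30186028) had 10, 10 and 21 reads in induced controls, against 2, 3 and 6 reads in uninduced cells, or 0.585, 0.81 and 1.05 CPM in induced controls against 0.125, 0.193 and 0.389 CPM in uninduced cells (log2 1.79 ± 0.44 (SE), edgeR adjusted p = 0.0018). It rose under induction at levels near the floor of 3 reads. Of the 7 tested striated muscle markers 4 rose and 2 fell under induction, with a median log2 change of 1.34. Mylpf, a fast muscle myosin light chain, had 3.65 CPM in induced controls against 0.382 CPM in uninduced cells (log2 3.24, adjusted p = 5.1e-08), and Tnnt2, cardiac troponin T, had 7.2 CPM in induced controls against 0.729 CPM in uninduced cells (log2 3.30, adjusted p = 2.7e-07). Des, desmin, had 2.12 CPM in induced controls against 9.38 CPM in uninduced cells (log2 -2.13, adjusted p = 3.3e-08), and Acta1, skeletal muscle actin, had 10.8 CPM in induced controls against 19.1 CPM in uninduced cells (log2 -0.82, adjusted p = 2.1e-04). Myog, Myh6 and Actc1 were at 0 reads in induced controls, and Myh6 and Ckm in uninduced cells. The part of muscle genes in the Cox7a1 value was not tested. Ndufa4l2 also rose under induction, with 1.52, 1.86 and 4.8 CPM in induced controls, against 1.25, 0.964 and 0.906 in uninduced cells (log2 1.44 ± 0.43 (SE), edgeR adjusted p = 0.0079), but not without induced control replicate 3 (log2 0.68, adjusted p = 0.14). The widely used isoforms Cox4i1, Cox6a1, Cox6b1, Cox7a2 and Cox8a fell under induction, by 0.22, 0.39, 0.19, 0.16 and 0.32 on the log2 scale, and of these only Cox6a1 passed with library totals as the scale. Leaving out 1 library ended the call of Cox7a2 for 4 of the 6 libraries, of Cox8a for 3, and of Cox4i1 and Cox6b1 for 1 each. The genes of the c subunit, Atp5g1, Atp5g2 and Atp5g3, had log2 values of -0.26, -0.11 and 0.042 under induction and did not pass, and Cox7b had 0.014.

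Genes that build and serve the complexes were counted in lists of their own under induction, where 32.7% of all rows were called in each direction. Of 28 tested genes for the upkeep and expression of mitochondrial DNA 16 rose and 1 fell (median log2 0.27). Peo1, the mitochondrial helicase Twinkle, had 30.1 CPM in induced controls against 16.6 CPM in uninduced cells (log2 0.86, adjusted p = 5.3e-08). Grsf1, a protein of mitochondrial RNA granules, had 135 CPM in induced controls against 80.4 CPM in uninduced cells (log2 0.74, adjusted p = 7.4e-07). Of 76 mitochondrial ribosomal protein genes 31 rose and 6 fell (median 0.16). Mrpl12, of the large subunit, had 74.2 CPM in induced controls against 46.9 CPM in uninduced cells (log2 0.67, adjusted p = 4.8e-06). Without both libraries that stood apart the ribosomal list had 33 higher and 7 lower. With library totals as the scale, where 40.1% of all rows rose and 24.9% fell, the ribosomal list had 44 higher and 2 lower and the mitochondrial DNA list 17 and 0.

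Of 18 outer membrane and import genes 11 rose and 3 fell (median log2 0.22). The inner membrane import subunit Timm50 had 52.8 CPM in induced controls against 30.03 CPM in uninduced cells (log2 0.82, adjusted p = 4.8e-06), and the fusion protein gene Mfn2 had 89.7 CPM in induced controls against 139 CPM in uninduced cells (log2 -0.63, adjusted p = 9.4e-07). Of 19 citric acid cycle genes 9 rose and 2 fell (median 0.16). Cs, citrate synthase, had 446 CPM in induced controls against 291 CPM in uninduced cells (log2 0.62, adjusted p = 4.7e-07), and Pcx, pyruvate carboxylase, which feeds the cycle, had 26.9 CPM in induced controls against 46.8 CPM in uninduced cells (log2 -0.79, adjusted p = 2.2e-04). The 43 assembly factors had 10 higher and 12 lower (median 0.0017), among them Cox15, which makes heme A for complex IV (log2 0.60, adjusted p = 6.1e-06), and Cox20, a chaperone of COX2 (log2 -0.67, adjusted p = 3.3e-05). The 24 electron carriers and inhibitors had 7 higher and 8 lower (median -0.022), with Cycs, cytochrome c, at 46.3 CPM in induced controls against 35.9 CPM in uninduced cells (log2 0.37, adjusted p = 0.0011), and the ADP/ATP carrier gene Slc25a4 at 417 CPM in induced controls against 536 CPM in uninduced cells (log2 -0.36, adjusted p = 4.1e-05). Of 15 regulators 8 rose and 3 fell (median 0.27). Epas1, which encodes HIF-2 alpha, had 23.6 CPM in induced controls against 7.78 CPM in uninduced cells (log2 1.61, adjusted p = 7.9e-10), Hif1a, its relative, had 306 CPM in induced controls against 516 CPM in uninduced cells (log2 -0.75, adjusted p = 1.3e-06), and the coactivator gene Ppargc1a had 0.298 CPM in induced controls against 1.13 CPM in uninduced cells (log2 -1.87, adjusted p = 1.7e-04). With library totals as the scale the outer membrane and import list had 13 higher and 2 lower, the citric acid cycle 15 and 1, the assembly factors 17 and 8, the electron carriers and inhibitors 9 and 6, and the regulators 9 and 2, so the balance of the assembly factors and of the electron carriers turned with the scaling.

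In Trim28-knockdown cells against induced controls, where 13.1% of all rows rose and 11.8% fell, the same lists had 0 to 4 calls in each direction. The assembly factors had 1 higher and 3 lower, the mitochondrial DNA list 1 and 1, regulators 2 and 2, electron carriers 3 and 2, the citric acid cycle 0 and 1, outer membrane and import 0 and 2, and the mitochondrial ribosome 0 and 4. Taco1, an activator of COX1 translation, had 6.09 CPM in Trim28-knockdown cells against 10.8 CPM in induced controls (log2 -0.83, adjusted p = 1.0e-04). Ucp2, a carrier of the inner membrane, had 23.1 CPM in Trim28-knockdown cells against 44.3 CPM in induced controls (log2 -0.94, adjusted p = 9.2e-06). In double-knockdown cells against induced controls, beside 18.1% of all rows higher and 18.5% lower, the assembly factors had 7 higher and 3 lower, the mitochondrial DNA list 1 and 3, regulators 1 and 6, electron carriers 5 and 1, the citric acid cycle 1 and 1, outer membrane and import 2 and 2, and the mitochondrial ribosome 6 and 6. With library totals as the scale, beside 14.6% and 22.6% of all rows, these counts were 5 and 9 for assembly factors, 0 and 7 for the mitochondrial DNA list, 1 and 6 for regulators, 3 and 3 for electron carriers, 0 and 3 for the citric acid cycle, 2 and 4 for outer membrane and import, and 2 and 12 for the mitochondrial ribosome. The balance of the assembly factors thus turned with the scaling. Slc25a3, the phosphate carrier that supplies ATP synthesis, had 681 CPM in double-knockdown cells against 502 CPM in induced controls (log2 0.44, adjusted p = 6.5e-05). Taco1 had 5.95 CPM in double-knockdown cells against 10.8 CPM in induced controls (log2 -0.86, adjusted p = 4.7e-05). In double-knockdown against Trim28-knockdown cells, beside 10% of all rows higher and 11.7% lower, the assembly factors had 2 higher and 0 lower, the mitochondrial DNA list 0 and 1, regulators 1 and 3, electron carriers 3 and 0, the citric acid cycle 0 and 0, outer membrane and import 1 and 1, and the mitochondrial ribosome 2 and 1. Ucp2 had 36.5 CPM in double-knockdown cells against 23.1 CPM in Trim28-knockdown cells (log2 0.66, adjusted p = 4.9e-04), and Epas1 had 19 CPM in double-knockdown cells against 34.1 CPM in Trim28-knockdown cells (log2 -0.84, adjusted p = 1.1e-05).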

How the data were processed

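The authors deposited whole-number read counts per gene for 24207 rows in 12 libraries. Per the submitters' processing notes, TopHat2 2.0.12, Bowtie 1.1 and HTSeq were used. The HTSeq version, the genome build, and whether counting used strand or reads with several matches are not given in the sources used here. Reads of overlapping or near-identical genes therefore cannot be told apart. Groups and replicate numbers came from the sample titles. Rows passing edgeR's filterByExpr (minimum count 10, minimum total 15), 14520 in all, were fitted together with TMM scaling and a quasi-likelihood model over the 4 groups (edgeR 4.0.16, R 4.3.3), and p-values were adjusted over all tested rows by Benjamini-Hochberg with a threshold of 0.05. CPM values are TMM-scaled counts computed from the deposited counts, and a value of 3 reads is taken as the floor. The code was checked on simulated counts. Members and gene lists were chosen with earlier results of these data known. Named members were, per comparison and complex, the 2 called nuclear members with the smallest p in each direction, all mitochondrial members and the isoforms, and from each list the 2 called genes with the smallest p in each direction; others are given beside them where a result turns on them. Printed positions of members are those of the deposited table, and all 94 overlap the same identifier in the GRCm38 annotation. Sequences are from GRCm38 and from RefSeq's GRCm38.p6 tables. Copies were sought by aligning coding sequences to annotated transcripts (98% identity or more; 50% covered for a listed copy). Alternatives were DESeq2 1.42.0, limma-voom (limma 3.58.1), library totals, nuclear genes only for scaling, no filter, at least 1 CPM in 6 libraries, the 2 groups alone, a replicate block, each replicate left out and, added after seeing the data, 2 libraries left out. Replicates differed by more than sampling noise. The labels number the replicates 1 to 3 in each group but name no shared culture or day. In double-knockdown and induced control libraries the same-numbered pairs had deviations that correlated at 0.31, 0.141 and 0.188, against -0.208 to 0.0345 for the other pairs. By the data alone, same-numbered libraries of these groups were thus alike. The main fit did not use this pairing, so its SE and p-values for that comparison leave it out. Results with a replicate block, fitted over all 4 groups, are given beside it. In the other comparisons at least 1 same-numbered pair was under 0.1. Intervals of depth cover counting error only.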

Additional observations from a re-analysis of the deposited data

Results flagged for a closer look

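For 4 nuclear members the effect of both hairpins differed from the effect of the Trim28 hairpin by the test of that difference itself, the edgeR comparison of double-knockdown with Trim28-knockdown cells at an adjusted p under 0.05, where 21.7% of all rows were called. The log2 difference was 0.38 for Ndufv3, 0.27 for Cox6c, 0.23 for Ndufb10 and 0.48 for Cox6b2. Against induced controls, double-knockdown cells gave log2 values of 0.069, -0.11, 0.23 and 0.28 for these genes in that order, and Trim28-knockdown cells -0.31, -0.38, 0.0016 and -0.20. Both sets of values share the induced controls. Trim28 message was also higher in double-knockdown cells (103 CPM) than in Trim28-knockdown cells (58.5 CPM), so these differences cannot be assigned to the Setdb1 hairpin alone.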

How the results depend on the processing

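Counts of members called moved by over 1.5 times under these settings. With library totals in place of TMM, induction had 12 nuclear members lower, 3 mitochondrial members higher and 0 lower, and double knockdown against induced controls had 3 nuclear members higher and 2 mitochondrial members lower. Without the 2 libraries that stood apart (chosen after seeing the data), induction had 0 mitochondrial members higher and 3 lower, Trim28 knockdown 1 nuclear member higher and 7 lower, and double knockdown 13 nuclear members higher against induced controls and 24 against Trim28 knockdown. With only the 2 groups compared, double knockdown had 4 nuclear members higher and 1 lower against induced controls, and 20 higher against Trim28 knockdown. With no filter, 2 mitochondrial members fell in each of the 3 comparisons other than that between the knockdowns, 1 nuclear member fell in double knockdown against induced controls and 11 rose against Trim28 knockdown. The stricter filter gave 1 nuclear member lower in double knockdown against induced controls, and limma-voom 2 mitochondrial members lower under induction. The cause of these shifts was not tested.

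With a replicate block, 15 nuclear members rose and 24 fell under induction, 0 and 3 with Trim28 knockdown, 11 and 3 with double knockdown against induced controls, and 6 and 0 against Trim28 knockdown. With it 2 mitochondrial members fell under induction (mt-Nd1 gained a call) and 1 with Trim28 knockdown (mt-Co1). Of the named members 1 other call changed, that of Cox8a in double knockdown against induced controls. Calls over all rows with the block were 9572 under induction, 3864 with Trim28 knockdown, 5537 with double knockdown against induced controls and 3399 against Trim28 knockdown, and 9484, 3620, 5322 and 3154 without it. In the 3 comparisons where not every same-numbered pair passed 0.1, these pairs had correlations of -0.224 to 0.21, and not every library correlated best with its own number.

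Leaving out 1 library at a time, induction had 11 to 16 nuclear members higher and 19 to 28 lower, and 0 to 3 mitochondrial members higher and 1 to 3 lower. Trim28 knockdown had 0 to 1 nuclear members higher, 2 to 4 lower and 0 to 2 mitochondrial members lower. Double knockdown against induced controls had 1 to 15 nuclear members higher, 1 to 3 lower and 1 to 2 mitochondrial members lower, and against Trim28 knockdown 1 to 5 nuclear members higher. Of 40 called results for single members 21 kept their call in every alternative and 19 lost it in at least 1, 20 of 85 others gained one, and 0 reversed.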
